A study of Rattus norvegicus with 6 samples.

Results

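The complement genes described here are C3, its receptor C3ar1, the C5a receptor C5ar1, the proteases Cfd, Cfi, C1r and C1s, and the inhibitors Serping1 and Cd55. These 9 genes were examined among the 16575 genes that carried a named probe on the rat array. The genes were chosen by name from the complement pathway with earlier results of these arrays known. The probe that stands for each gene was selected by its signal, as the probe with the highest mean over all 6 arrays, so neither the choice of genes nor a high signal is a finding. All 9 genes were found, with 15 probes between them.

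Complement is a cascade of plasma proteases and their substrates. Cleavage of C3 releases C3a, a small anaphylatoxin that acts on the G protein-coupled receptor C3aR, while the sister fragment of C5 acts on C5aR1. The classical route starts with the proteases C1r and C1s, and the alternative route needs complement factor D (Cfd) to build its C3 convertase. Host cells restrain the cascade with C1 inhibitor (Serping1), the membrane protein CD55, which breaks up convertases, and factor I (Cfi), which cuts the fragments C3b and C4b. The liver makes most of the plasma components, myeloid cells are known for both anaphylatoxin receptors, and fat cells are known for Cfd.

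Gene expression was measured in neonatal rat ventricular cardiomyocytes (NRVCs), primary cells obtained from Sprague-Dawley rats 1 to 2 days old. Each preparation pooled the ventricles of 8 to 10 hearts, with a preplating step before culture. All samples shared a collagen coat and a serum-free medium with antibiotics, and the records name no genetic change. In the study's methods, serum was lowered but not left out shortly before stimulation, which differs from the serum-free medium. Whether serum was present with C3a is therefore not settled. Control cultures received no C3a (n = 3), and the others received recombinant C3a at 0.5 µg/ml for 12 h (n = 3). The sample records do not say whether the replicates were separate cell preparations, so the p-values below measure the spread between these samples, which may be technical.

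Each sample was labelled with Cy3 and hybridised to its own 1-colour array. Values are given as relative log2 signal, that is the log2 of the background-corrected intensity minus that of the 75th percentile of the same array, so that 0 is the 75th percentile. All arrays lay on 1 slide, and the row of the slide separated the controls from the C3a arrays, so position and treatment cannot be told apart. Control replicate 1 stood apart. On it 38.6% of probes were well above background by the scanner software, against 53.7% to 57.3% on the other arrays, and its median local background was 47 intensity units against 23 to 24. On control replicate 1 the dimmest probe that passed this flag had a relative log2 signal of -2.28, against -5.09 to -4.18 on the other arrays. Dim signals on control replicate 1 are therefore near or under its background. Where the difference of a named complement gene rests on them, it is also given without that array. The cardiomyocyte label was borne out by 14 of 15 markers well above background on all 6 arrays. So were 8 of 12 fibroblast, 7 of 10 endothelial and 4 of 6 smooth muscle markers. With C3a, 12 of the 15 cardiomyocyte markers differed by more than 0, where 6299 of all 10390 tested genes did. The median of these markers was 0.16 beside 0.036 for all tested genes, with 0 at an unadjusted p under 0.05 or after adjustment in limma. The part of these cell types in the results was not tested. The number of arrays limits the precision.

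Before the values, the upstream sequence is shown for the genes on which the comparison turns. These are C3, which encodes the precursor of C3a, C3ar1, the receptor of C3a, and Cfi, the member with the largest difference. The added C3a was recombinant and did not come from this gene of the cultures. Each is the 250 bases before the annotated start, from RefSeq on build GRCr8, which held such a sequence for 6 of the 9 genes. Capitals mark matches on either strand to the letters TTGCNNAA, used for C/EBP factors, or to GGG, any 5 bases and CC, a loose form of the NF-kB letters. The letters TTCNNNGAA, used for STAT factors, were searched too.
C3, chr9:2201340-2201589, minus strand: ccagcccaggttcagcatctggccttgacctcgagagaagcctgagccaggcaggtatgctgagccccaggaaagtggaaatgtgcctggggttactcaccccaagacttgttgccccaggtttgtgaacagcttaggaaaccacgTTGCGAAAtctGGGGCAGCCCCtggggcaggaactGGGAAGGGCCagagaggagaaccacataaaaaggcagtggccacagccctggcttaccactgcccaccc
C3ar1, chr4:157756531-157756780, minus strand: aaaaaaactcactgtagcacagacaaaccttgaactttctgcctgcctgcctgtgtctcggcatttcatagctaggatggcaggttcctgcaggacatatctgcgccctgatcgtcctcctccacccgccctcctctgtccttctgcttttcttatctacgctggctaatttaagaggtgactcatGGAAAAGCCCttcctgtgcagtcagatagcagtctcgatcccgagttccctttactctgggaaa
Cfi, chr2:221063066-221063315, plus strand: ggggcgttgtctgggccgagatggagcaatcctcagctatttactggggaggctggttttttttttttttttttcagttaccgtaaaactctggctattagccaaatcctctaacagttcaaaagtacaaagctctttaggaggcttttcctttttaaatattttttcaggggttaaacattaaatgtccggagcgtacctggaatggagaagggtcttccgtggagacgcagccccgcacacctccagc

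The C3 sequence held a C/EBP match at position -104 from the start, next to NF-kB matches of which 2 overlap. The C3ar1 sequence held 1 NF-kB match, and the Cfi sequence held none of the letters searched. Among the 6 members with a sequence, 2 held the C/EBP letters, C3 and C1r, where 9.22% of 33469 rat sequences of this length did. The NF-kB letters were in 4 of the 6, where 42.3% of all such sequences held them, and the STAT letters were in 0 of the 6, where 7.67% held them. These matches are letters in a window and were not tested as binding sites.

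With C3a, no complement member passed the adjusted threshold. Of the 7 members that could be tested, Cfi had the largest difference, at 0.49 on the log2 scale, while C3ar1, Cfd, C1r, C1s, Serping1 and Cd55 differed by between -0.054 and 0.092. The test was limma over 23438 probes, those that every array of the control or of the C3a condition measured. Of these, 5919 entered through the C3a arrays only and 13 through the control arrays only. There 0 probes (0%) had an adjusted p under 0.05 and 1364 (5.82%) an unadjusted p under 0.05, 783 higher and 581 lower. Over probes well above background on all 6 arrays, 370 were higher and 639 lower. Among the 7 members, 0 had an unadjusted p under 0.05. The 3 arrays of one condition lay wholly above or below those of the other for 0 of the 7, against 12.5% of all tested probes. The differences were above 0 for 4 members and below 0 for 3, where 6299 of all 10390 tested genes were above 0. The median of the members was 0.036, beside 0.036 for all tested genes. The 4 members C3ar1, Cfi, C1r and Serping1 were well above background on all 6 arrays. Cfd, C1s and Cd55 entered the test through the C3a arrays only, because control replicate 1 did not measure them, and C3 and C5ar1 did not enter it.

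**Figure D1:**
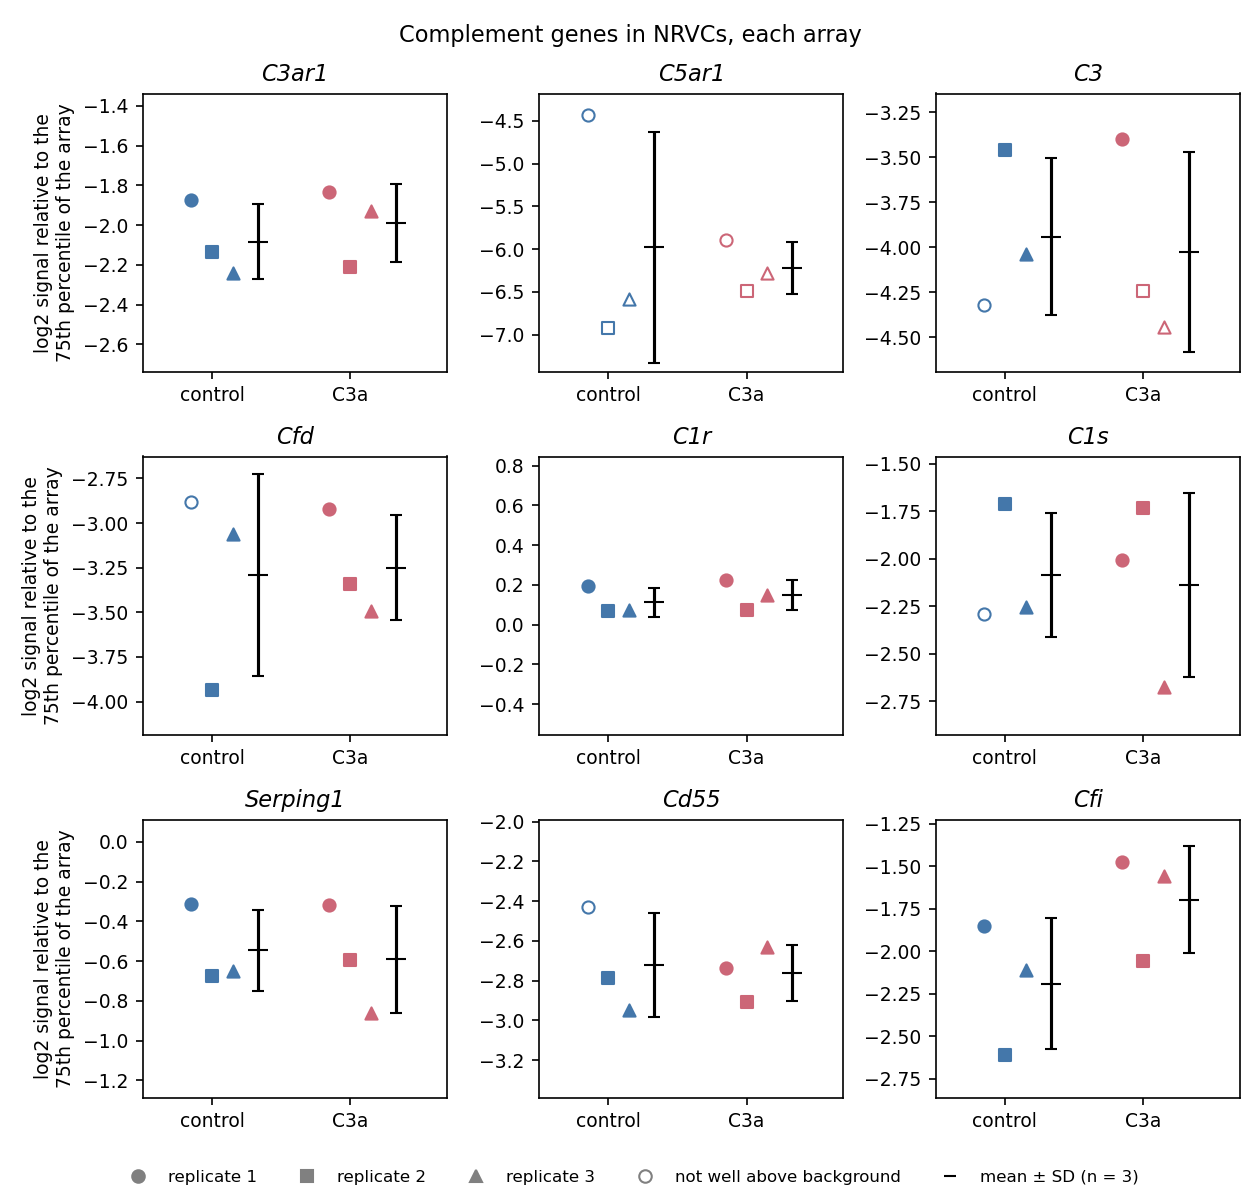
Relative log2 signal of the brightest probe of each complement gene on each array, for 3 control (blue) and 3 C3a (red) arrays, with the mean and SD of each group in black. Open symbols were not well above background, and levels are not comparable between genes. The groups overlap in every panel, Cfi has its 2 highest values with C3a, and C5ar1 has open symbols throughout.

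The receptors come first, since C3ar1 is the receptor for the fragment that was added. The brightest C3ar1 probe read -1.88, -2.13 and -2.24 in the controls and -1.83, -2.21 and -1.93 with C3a, replicates 1 to 3 in turn. The groups overlapped, with a mean of -2.08 ± 0.19 (SD, n = 3) without and -1.99 ± 0.20 (SD, n = 3) with C3a. The difference was 0.092 with a 95% interval from -0.25 to 0.43 (adjusted p = 0.851 from limma). A second C3ar1 probe was dimmer, was measured on 2 of 3 arrays in each condition, and differed the other way, by -0.15, untested. Control replicate 1 did not measure this second probe. Once that array was left out, the second probe entered the test and differed by -0.069 (adjusted p = 0.923 from limma). Leaving out single arrays gave between 0.013 and 0.20 for the brighter probe, the lowest without control replicate 3 and the highest without C3a replicate 2. Without control replicate 1 it was 0.20. The probes were designed to different C3ar1 transcript records.

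C5ar1 was the opposite case in signal. None of the 6 arrays (0 of 6) measured its probe, with an intensity of 12.7 units on control replicate 1 and of 2.7 to 3.9 units on the other 5. The relative log2 signal lay below the lowest value that counted as well above background on each array, so no fold is given. Of the other receptors for C3 and C5 fragments, C5ar2, Cr2 and Vsig4 were also not well above background on any array. Itgam and Itgb2, the chains of complement receptor 3, which myeloid cells use to bind iC3b, were measured. Itgam read -2.63, -2.99 and -2.58 in the controls and -2.39, -1.92 and -2.01 with C3a, so all C3a arrays lay above all controls. Its difference was 0.63 with a standard error of 0.17 (unadjusted p = 0.007 and adjusted p = 0.743 from limma). Control replicate 1 did not measure it, and without that array the difference was 0.68 (adjusted p = 0.703 from limma). Itgb2 differed by 0.099 (adjusted p = 0.831 from limma), and by -0.014 without control replicate 1, which did not measure it either.

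Since these receptors are known from myeloid cells, macrophage markers are given beside them. Of 16 listed, 8 were tested, of which 6 differed by more than 0 and 2 by less, with a median of 0.062. Among all 10390 tested genes, 6299 differed by more than 0. None of the 8 had an unadjusted p under 0.05 or passed after adjustment in limma. Among the brightest, Lyz2 differed by -0.088 and Cx3cr1 by 0.30 (adjusted p = 0.820 and 0.743 from limma), while Mrc1 and Cd163 were not well above background on any array. The summed macrophage signal ran from 3.70 to 4.16 in the controls and from 4.004 to 4.04 with C3a. None of 5 neutrophil markers with a named probe was measured on any array. In RNA from mixed cultures, fewer cells of a type and less RNA per cell cannot be told apart, and the part of macrophages in the C3ar1 and Itgam signals was not tested.

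The 3 genes whose 6-array profile lay closest to that of C3ar1 were Tsr2, Nr1h4 and E2f7. After each was centred on its own mean, they differed from C3ar1 by 0.026, 0.038 and 0.040 on average over the 6 arrays, while C3ar1 itself spanned 0.41. E2f7 read -3.19 on control replicate 1, below the lowest value of -2.28 that was well above background there. These are the nearest of 10389 genes compared, and no p is given.

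The source of C3a and the protease that helps to release it were both dim. The single C3 probe read -4.32, -3.46 and -4.04 in the controls and -3.40, -4.24 and -4.44 with C3a. Of the controls 2 measured it, and with C3a 1 array did. The highest and lowest of the 6 values were both from C3a arrays, and the groups overlapped fully, so no direction is given.

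Cfd was printed as 10 spots on every array, which shows the spread of single spots. It read -2.88, -3.94 and -3.06 in the controls and -2.92, -3.34 and -3.49 with C3a, and the lowest value was control replicate 2. The SD between single spots of one array was between 0.098 and 0.32. The SD between arrays, each value averaged over 9 to 10 spots, was 0.56 in the controls and 0.29 with C3a. An average over spots varies less than a single spot, so these SDs are not directly comparable. The difference was 0.040 with a 95% interval from -0.64 to 0.72 (adjusted p = 0.972 from limma), so these arrays bound a change of Cfd only loosely. Without control replicate 1, which did not measure it, the difference was 0.25. Without control replicate 2 it was -0.28, and without C3a replicate 1 it was -0.12.

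Hepatocyte and fat cell markers are given beside these components, since both cell types are known for them. Of 5 hepatocyte markers 4 were not well above background on any array, Alb among them, and of 3 fat cell markers with a named probe 2 were not. The summed hepatocyte signal was between -1.61 and -0.72 in the controls and between -1.62 and -1.06 with C3a. These sums include the 4 unmeasured markers, which read higher on control replicate 1. Alb was at -4.29 there, against -6.49 and -6.17 on the other controls. Ttr, the marker that was measured, had a mean of -1.57 in the controls and of -1.57 with C3a.

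The proteases of the classical route were C1r, which activates C1s, and C1s, which cuts C4 and C2. C1r was the steadiest member. It read 0.20, 0.069 and 0.073 in the controls and 0.22, 0.072 and 0.15 with C3a, the highest value of each group being replicate 1. Its single spots, 10 on every array, had an SD between 0.036 and 0.092 within an array. The SD between the array values, each averaged over spots, was 0.073 without and 0.076 with C3a. As for Cfd, the SD of single spots is not directly comparable with that of averages. The difference was 0.036 with a 95% interval from -0.19 to 0.26 (adjusted p = 0.918 from limma).

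C1s, by contrast, varied between arrays. The brighter of its 2 probes read -2.29, -1.71 and -2.25 in the controls and -2.01, -1.73 and -2.68 with C3a. The second probe, to the same transcript, read -2.06, -1.66 and -2.40, then -2.19, -1.92 and -2.90. Both probes had their highest value on control replicate 2 and their lowest on C3a replicate 3, so this spread was seen by both. The difference was -0.054 for the brighter probe, with an interval from -0.68 to 0.58, and -0.30 for the second, with an interval from -0.97 to 0.37 (adjusted p = 0.958 and 0.768 from limma). Without C3a replicate 3 the brighter probe gave 0.21, and without control replicate 2 it gave 0.13. Control replicate 1 did not measure either probe, and without it they gave -0.16 and -0.31.

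The inhibitors Serping1, which inactivates C1r and C1s, and Cd55, a membrane regulator, came next. Serping1 read -0.31, -0.68 and -0.65 in the controls and -0.32, -0.59 and -0.86 with C3a. Replicate 1 was the highest of each group, and the difference was -0.045 with an interval from -0.44 to 0.35 (adjusted p = 0.943 from limma). Without control replicate 1 it was 0.071.

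Cd55 has 5 probes to several of its transcripts. The brightest read -2.43, -2.78 and -2.95 in the controls and -2.74, -2.91 and -2.63 with C3a, with a difference of -0.040 and an interval from -0.40 to 0.32 (adjusted p = 0.946 from limma). The highest value came from control replicate 1, which did not measure the probe, and without that array the difference was 0.10. A second tested probe differed by -0.16 (adjusted p = 0.859 from limma), and by -0.48 without the same array (unadjusted p = 0.021 and adjusted p = 0.703 from limma). The tested Cd55 probes thus pointed in opposite directions when control replicate 1 was left out. Another was measured on 1 control and 2 C3a arrays, and the remaining 2 were not well above background on any array.

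Cfi, the protease that inactivates C3b and C4b, had the largest difference of the members. It read -1.85, -2.61 and -2.11 in the controls and -1.48, -2.06 and -1.56 with C3a. C3a replicate 2 lay below control replicate 1, so the groups overlapped, but each C3a array lay above the control array of the same number. The means were -2.19 ± 0.39 (SD, n = 3) and -1.70 ± 0.32 (SD, n = 3), a 1.41-fold difference, or 0.49 on the log2 scale with an interval from -0.052 to 1.04. The unadjusted p was 0.0696 and the adjusted p 0.743 from limma, at rank 1997 of 23438 probes. The size depended on single arrays. Without control replicate 2, the lowest array, the difference was 0.28 (unadjusted p = 0.209 and adjusted p = 0.997 from limma), and without C3a replicate 1 it was 0.38 (unadjusted p = 0.199 and adjusted p = 0.915 from limma). Without control replicate 1 it was 0.66 (unadjusted p = 0.0264 and adjusted p = 0.703 from limma), and without C3a replicate 2 it was 0.67 (unadjusted p = 0.0262 and adjusted p = 0.658 from limma). An exact permutation test (two-sided, 3 arrays a group) gave p = 0.2, where 0.1 is the smallest possible.

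The replicate numbers of the C3a and control arrays were next taken as pairs. The sample records do not state pairs, and the pairing rests on correlations of these same arrays. The block results below hold only if equal numbers are true pairs. The Cfi difference within pairs was 0.38, 0.55 and 0.55. With the replicate block its interval was 0.26 to 0.73, and its unadjusted p was 0.0024 (adjusted p = 0.221 from limma). By its brightest probe, Cfi was the only one of the 7 members with an unadjusted p under 0.05 there. Of all tested probes, 3198, or 13.6%, had one. A share of 1 in 7 members is close to that background, but it counts only the brightest probe of each gene. Among the 9 tested member probes, the second C1s probe had one as well. Its unadjusted p was 0.0349 with the block (adjusted p = 0.331 from limma), with differences of -0.14, -0.26 and -0.50 within pairs. One of its 2 spots differed by -0.54, with -0.38, -0.53 and -0.72 within pairs. The other spot differed by -0.095, with 0.033, -0.034 and -0.28 within pairs, so the size of this difference rests on 1 spot.

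**Figure D2:**
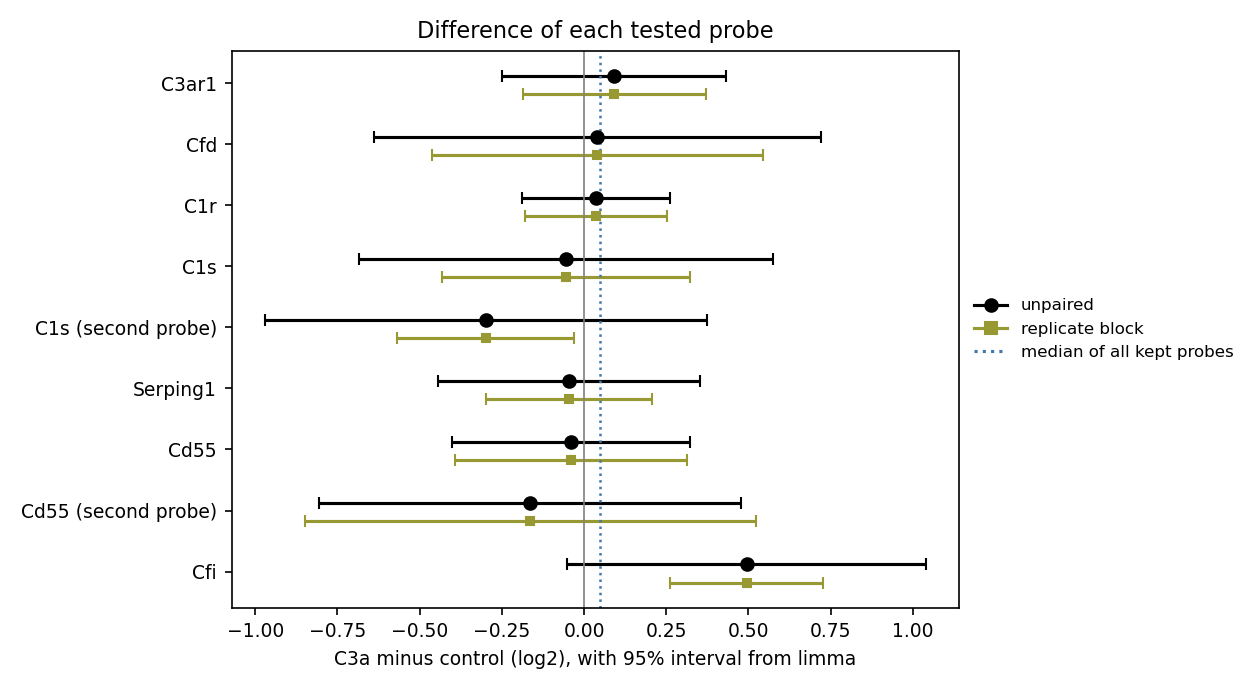
C3a minus control on the log2 scale for the 9 tested probes of 7 complement genes, with 95% intervals from limma without (black) and with (olive) the replicate block. The dotted line is the median of all tested probes, 0.048. All unpaired intervals include 0, and with the block those of Cfi and the second C1s probe do not. The block takes equal replicate numbers as pairs, which the sample records do not state.

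The Cfi probe was printed as 2 spots on each array, and the spots were compared at their place in the layout. The first spot was brighter than the second on all 6 arrays, by 0.88 to 1.35 on the log2 scale. The gap was 1.19, 1.35 and 1.24 on the control arrays and 0.93, 0.95 and 0.88 on the C3a arrays, so it was narrower on every C3a array, a difference that was not tested. The SD between the spots of one array was from 0.62 to 0.96. The C3a minus control difference was 0.38 for the first spot and 0.73 for the second, and it was above 0 in every pair for both spots. Both spots read the same samples on the same arrays, so the second spot is not a separate observation. The second spot was not well above background on control replicate 1. The size of the Cfi difference thus depends on the spot, while its sign did not. For the brighter C1s probe, which also has 2 spots, the gap lay between -0.44 and 0.34, with no fixed order.

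**Figure D3:**
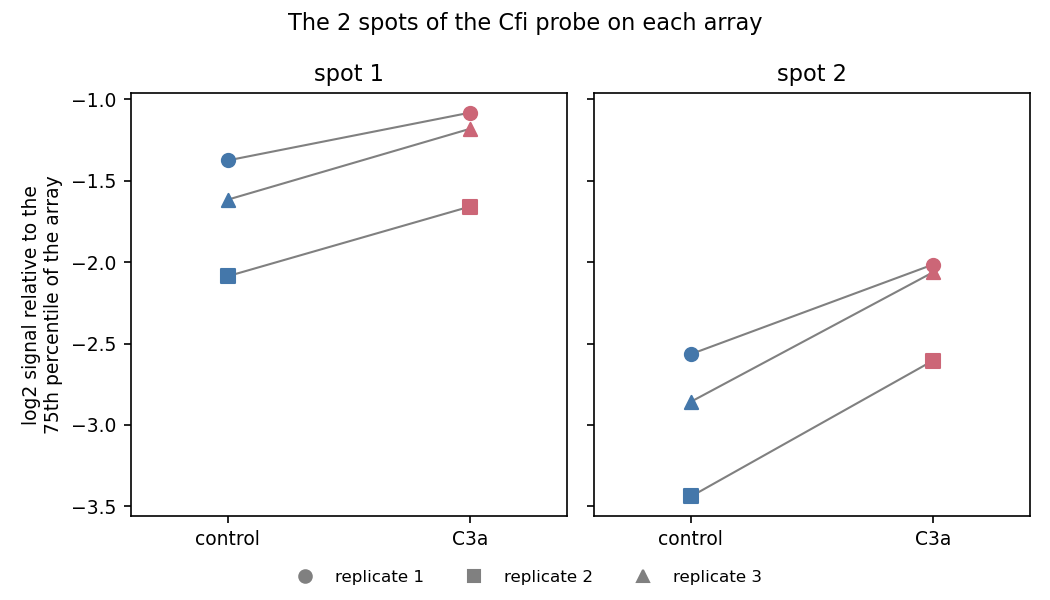
Relative log2 signal of each of the 2 Cfi spots on the control and C3a arrays, with a line joining arrays of the same replicate number. All 6 lines slope upward, by 0.29 to 0.43 for the first spot and by 0.55 to 0.83 for the second. The 2 spots share the same arrays, so these lines are not 6 separate observations. The first spot is the brighter one on every array.

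The scaling of the arrays moved all members together. Without normalization between arrays the median of all tested probes was -0.28, and with scaling to the spike-in transcripts it was -0.40. The Cfi difference was then 0.17 and 0.046, still above 0, while C3ar1 was at -0.23 and -0.36 and C1r at -0.29 and -0.41. Both scalings shift every probe by the same amount, so the sign changes of C3ar1 and C1r there are that of the median of all probes, and no gene changes its place relative to the others. Apart from these scalings, the difference of C3ar1 was above 0 in every alternative for its brighter probe. Alternatives of the filter or the test alone cannot change a difference. Cfd, C1r, C1s, Serping1 and Cd55 changed sign when single arrays were left out.

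**Figure D4:**
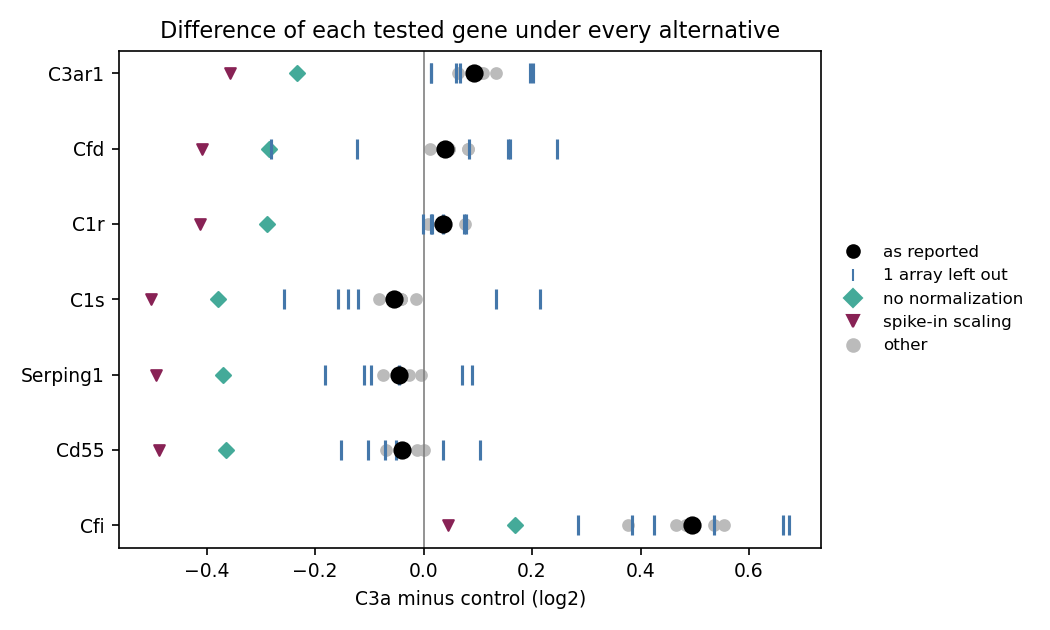
C3a minus control on the log2 scale for each tested complement gene, as reported (black) and under every alternative of scaling, filter and test, with 1 array left out at a time (blue bars). Cfi lies between 0.046 and 0.67. The lowest values of every gene are from the spike-in and unnormalized scalings, which shift all probes alike, and apart from these C3ar1 also lies above 0, from 0.013 to 0.20.

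The rest of the pathway was read from a list of 58 complement genes that includes the members. A named probe was found for 52 of them, of which 24 were tested and 24 were not well above background on any array. Of the 24 tested, 1 was higher and 1 lower at an unadjusted p under 0.05, where 554 of 10390 genes (5.33%) passed, and 0 passed after adjustment. The median difference was 0.016, beside 0.036 for all tested genes. The higher gene was Itgam, described above, and the lower one was Colec12, a scavenger receptor of the collectin family, at -2.56, -2.61 and -2.77 in the controls and -2.94, -2.98 and -3.08 with C3a. Colec12 differed by -0.36 with a standard error of 0.10 (unadjusted p = 0.0097 and adjusted p = 0.743 from limma), and control replicate 1 did not measure it. Without that array the difference was -0.31 (adjusted p = 0.703 from limma). The components not measured on any array included C1qa, C1qc, C4a, C8a and C9, the regulators C4bpa and Vtn, and the lectin route genes Mbl1, Mbl2 and Masp2. Their relatives C1qb and C4b, however, were each measured on 2 control and 3 C3a arrays. Measured on all 6 arrays were 12 genes of the list. Of these Cfi differed by 0.49 and Cd93, a membrane protein of endothelial and myeloid cells, by -0.26 (unadjusted p = 0.0674 and adjusted p = 0.743 from limma). The other 10, Clu, Cd59b, Cr1l, Masp1 and C6 among them, differed by between -0.045 and 0.12.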

How the data were processed

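Microarray data of 6 arrays (3 control, 3 C3a) were used. Agilent Feature Extraction 11.5.1.1 wrote the background-corrected and detrended intensity of each spot, with its flags, and the authors deposited this output beside a table of log2 values for 36638 probes. Set against the scanner output, that table was on the scale used here, with no centring of genes, and differed by at most 0.0059 at the median. Its column medians were between -3.13 and -3.00. Control spots and spots with an outlier flag were left out, spots of one probe were averaged, and a probe counted as well above background where at least 50% of its spots did. Probes were named by accession through the RefSeq gene table of GRCr8, which held 46.3% of them. Genes of probes outside that table are not analysed here. A lone-spot probe has no spot error.

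Differences between the conditions were tested with limma 3.58.1 under R 4.3.3, using lmFit, eBayes and two-sided p-values adjusted by Benjamini-Hochberg over all kept probes. The step was tested on simulated data. Named were all members with every probe, genes of the wider list with an unadjusted p under 0.05, other receptors of C3 and C5 fragments, and the 3 profiles closest to C3ar1. Other complement and marker genes are named as examples, and were picked after their values were seen. Members, lists and tests were chosen with earlier results of these data known. Alternatives were other scalings, filters, background correction and tests, the authors' table, other probes of a gene, the replicate block and each array left out. Normexp (offset 50) used the median spot signal, since the files give no mean signal. The test of the methods, without the shared spread of limma, was an alternative. No slide block was possible with 1 slide.

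Arrays with the same replicate number deviated together, with a correlation of deviations from the group mean of 0.28 to 0.32, against -0.26 to -0.093 for different numbers. Each group was centred on its own mean, so positive values for equal numbers force lower ones for different numbers. The contrast between them is therefore not separate support. The sample records give numbers only, so the pairing rests on the correlations of equal numbers. Figures were drawn with matplotlib 3.10.9.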

Additional observations from a re-analysis of the deposited data

How the results depend on the processing

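None of the 7 tested members passed the adjusted threshold in any of the 130 tests under alternatives, where adjusted p from limma or the methods' test ran from 0.221 to 0.999. Cfi kept its direction in 19 of 19 alternatives. Those that changed only the filter or the test could not alter its direction, since the difference stayed at 0.49. Cfi had an unadjusted p under 0.05 in 7 of the 19, which gave 1 member at that level in place of 0. These were the median of each array, normexp, probes well above background on all 6 arrays, the replicate block, the block with quantile normalization, and leaving out control replicate 1 or C3a replicate 2. Leaving out single arrays gave 0 to 1 members and between 0.28 and 0.67 for Cfi. The block with quantile normalization was chosen after seeing the data.

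Scaling shifts all probes alike: the median of all tested probes was -0.28 without normalization and -0.40 with spike-in scaling. The sign changes there follow that shift and say nothing of a gene relative to the others. Without normalization C3ar1 was at -0.23, Cfd at -0.28 and C1r at -0.29, and with spike-in scaling at -0.36, -0.41 and -0.41. The second C3ar1 probe gave -0.15, and the median of each array gave 0.00099 for Cd55. Leaving out single arrays gave 0.013 to 0.20 for C3ar1, -0.0012 to 0.078 for C1r, -0.26 to 0.21 for C1s, -0.28 to 0.25 for Cfd, -0.15 to 0.10 for Cd55 and -0.18 to 0.090 for Serping1. The cause of the sign changes with single arrays was not tested.

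Over all probes, 4 passed the adjusted threshold without normalization and 16 with spike-in scaling, where it was 0 in the other settings. At an unadjusted p under 0.05, the 1364 probes became 2599 without normalization, of which 41 were higher and 2558 lower. Their number was 3198 with the replicate block, 3017 with the block and quantile normalization, and 1108 in the methods' test. When 1 array was left out, it was between 802 (without C3a replicate 3) and 2141 (without control replicate 3). The 2 genes of the wider complement list became 1 with spike-in scaling or a variance trend, 4 with the replicate block, 5 with the block and quantile normalization, and 2 to 4 when 1 array was left out, the 4 being without control replicate 1. Signals near background on control replicate 1 limit what can be said of Cfd, C1s and Cd55. They also touch Cfi, which passed the flag on that array with 1 of its 2 spots.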
